A study of Mus musculus with 12 samples.

Results

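The interleukin-6 (IL-6) family was followed in RNA-seq of STHdhQ7 and STHdhQ111 mouse striatal cells, as the 9 genes of the table named Il6, Lif, Il11, Clcf1, Il6ra, Il6st, Lifr, Osmr and Il11ra1, out of 29428 genes in all. All 9 were in the table once and all 9 reached at least 0.5 TPM (a transcript level corrected for gene length and sequencing depth) in at least 3 of 12 libraries, the limit set for testing, which 16127 genes passed. STHdhQ7 cells (STHdhQ7/Q7, labelled normal) and STHdhQ111 cells (STHdhQ111/Q111, labelled HD, for Huntington's disease) are immortalized lines whose huntingtin gene encodes 7 or 111 glutamines. Each genotype is 1 line grown at 33 °C, so that genotype and line cannot be told apart. Nontreated STHdhQ7 (Q7-C) and STHdhQ111 cells (Q111-C) were compared with treated cells of the same lines (Q7-T and Q111-T), which received 100 ng/mL murine IFNγ together with 5 μg/mL LPS over 24 h, and each of the 4 groups has 3 libraries. IFNγ and LPS were given only together, so the part of each cannot be told apart, and the LPS and IFNγ response was measured at 1 time.

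IL-6 family cytokines are small secreted proteins that signal through receptor complexes holding gp130, the protein of Il6st. IL-6 and IL-11 first bind their own receptors (Il6ra and Il11ra1), which carry little signalling capacity themselves, while LIF brings gp130 together with the LIF receptor (Lifr), and the oncostatin M receptor (Osmr) pairs with gp130 when oncostatin M is bound. The complexes activate JAK kinases, which phosphorylate STAT3, and suppressor of cytokine signalling 3 (Socs3) binds gp130 and ends the signal. In the brain, IL-6 and LIF are known as cytokines that astrocytes and microglia release after injury or infection.

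The labels call both lines striatal neuronal. Of the neuronal markers, Tubb3 had means of 16.9, 74.6, 3.91 and 24.7 TPM in Q7-C, Q7-T, Q111-C and Q111-T and rose with treatment in both lines (edgeR adjusted p = 1.16e-04 and 1.53e-05). Map2 had means of 7.93, 2.13, 5.90 and 5.61 TPM and fell in STHdhQ7 cells (edgeR adjusted p = 0.00868). Snap25 and Syt1 stayed at or under 8 counts in every library, and the striatal projection neuron marker Ppp1r1b reached at most 1.30 TPM. The summed level of 6 mesenchymal markers was 4331 to 5118 TPM in Q7-C, 3337 to 3872 in Q7-T, 4199 to 4378 in Q111-C and 1723 to 2052 in Q111-T. These markers ran apart between the lines, with Acta2 at means of 1669.6 TPM in Q7-C and 43.7 in Q111-C and Col1a2 at 14.6 and 250.2. Of 5 astrocyte markers, Gfap, Aqp4 and S100b never reached 0.5 TPM, and the summed level was at most 1.93 TPM in STHdhQ7 cells, 8.97 to 11.03 in Q111-C and 3.94 to 4.94 in Q111-T. Among them, Slc1a3 fell from a mean of 9.86 to 2.75 TPM with treatment in STHdhQ111 cells (edgeR adjusted p = 7.67e-04), while Aldh1l1 rose from 0.0384 to 1.32 (edgeR adjusted p = 0.0116). The summed level of 3 neural progenitor markers was 75.0 to 126.8, 36.1 to 103.7, 10.7 to 13.1 and 8.74 to 13.6 TPM in Q7-C, Q7-T, Q111-C and Q111-T. The part of these marker differences in the results was not tested. Of 5 macrophage or microglia markers in the table, 4 never reached 0.5 TPM. Of these 4, Ptprc, Itgam and Adgre1 were at 0 or near it. Csf1r was at 0.0855 to 0.272 TPM in Q7-C, 0.109 to 0.152 in Q7-T, 0.125 to 0.270 in Q111-C and 0.185 to 0.479 in Q111-T. Cd68, a lysosomal protein found in many cell types, was at 5.80 to 8.24 TPM in Q7-C, 8.69 to 15.1 in Q7-T, 14.2 to 16.5 in Q111-C and 40.3 to 57.5 in Q111-T. Library totals lay between 57505990 and 96417834 estimated counts. A pair of libraries stood apart from the rest. Q7-C replicate 1 and Q7-T replicate 2 had 7.01% and 8.88% of their counts in ribosomal protein genes, against 3.08 to 4.63% in the other 10, and Q7-T replicate 2 was closer to Q7-C replicate 1 than to the libraries of its own group. The summed level of 6 skeletal muscle transcripts, a list chosen after the data were seen, came to 2269 TPM in Q7-T replicate 2, 587.0 in Q7-T replicate 1, 478.3 in Q111-T replicate 3 and 343.6 in Q111-C replicate 1, and to at most 26.3 in the other libraries. Q111-T replicate 2 also differed from its group, with 5.77% mitochondrial counts against 3.17% and 3.65%. Where leaving out the first 2 of these libraries moved a member across an adjusted p of 0.05 or across 2-fold, the value without them is given, and also that with Q111-T replicate 2 left out where only this moved it.

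Il6, Lif and Il11, the 3 ligand genes that were higher in Q111-T than in the other groups, were picked after seeing the data. Their upstream sequences are printed here. They come from RefSeq on GRCm38.p6 and run 5′ to 3′ towards the transcription start, from which positions are counted. Capitals mark letters that match a searched motif, which were TTCNNNGAA (STAT), TGANTCA (AP-1), TTNNGNAA (C/EBP) and the kappaB consensus, each on both strands. The Il6 stretch is chr5:30012864-30013113 on the plus strand, the Lif stretch is chr11:4257318-4257556 on the plus strand and ends 11 bases short of the RefSeq start, since those bases lie in an annotated exon, and the Il11 stretch is chr7:4778142-4778391 on the minus strand, upstream of the inner of the 2 Il11 starts listed by RefSeq.
Il6: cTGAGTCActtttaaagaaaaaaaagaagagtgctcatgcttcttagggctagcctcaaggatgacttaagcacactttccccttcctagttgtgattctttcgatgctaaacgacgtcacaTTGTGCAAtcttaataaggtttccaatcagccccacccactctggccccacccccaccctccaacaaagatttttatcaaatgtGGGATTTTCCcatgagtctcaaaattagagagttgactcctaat
Lif: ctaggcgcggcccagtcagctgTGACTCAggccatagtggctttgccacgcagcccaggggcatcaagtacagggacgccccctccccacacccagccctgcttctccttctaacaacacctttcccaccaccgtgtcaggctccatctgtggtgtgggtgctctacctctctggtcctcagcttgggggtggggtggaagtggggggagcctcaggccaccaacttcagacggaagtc
Il11: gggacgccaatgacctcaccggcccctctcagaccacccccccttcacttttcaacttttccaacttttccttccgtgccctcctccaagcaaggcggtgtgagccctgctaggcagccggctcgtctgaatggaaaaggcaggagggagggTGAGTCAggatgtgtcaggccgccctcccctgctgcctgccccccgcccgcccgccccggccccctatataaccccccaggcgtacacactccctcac

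The printed Il6 stretch holds TGAGTCA 249 to 243 bases before the start, the C/EBP letters TTGTGCAA 128 to 121 bases before it, and the kappaB letters GGGATTTTCC 44 to 35 bases before it. In the Lif stretch the only match was TGACTCA, 228 to 222 bases before the start, and in the Il11 stretch it was TGAGTCA, 98 to 92 bases before it. The 250 bases before the start were searched for 8 of the 9 members, with 11 starts among them. AP-1 letters were in 3 of the 11 windows, 1 each of Il6, Lif and Il11, while the outer Il11 start had no match, and 6.75% of 32851 promoter windows of the same length held them. C/EBP letters were in 2 windows (Il6 and Il6ra, against 36.8% of all windows), kappaB letters in 1 (Il6, against 3.90%) and STAT letters in 0 (against 7.02%). The window of Osmr, a gene also higher in Q111-T than in Q111-C, held no match. All matches given here are of letters and were not tested for binding.

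Il6 encodes the cytokine that names the family, and the file places it at chr5:30013114-30019981 on the plus strand of GRCm38. It was at 0.0648, 1.92 and 1.53 TPM in Q7-C replicates 1 to 3 and at 21.5, 3.61 and 13.0 TPM in Q7-T. In STHdhQ111 cells it was at 0.282, 0.470 and 2.98 TPM without treatment and at 574.2, 742.2 and 536.8 TPM with it. The treated libraries lay above the nontreated ones in both lines without overlap, the 2 nontreated groups overlapped, and the lowest Q111-T library was far above the highest Q7-T library. The Q7-C replicate 1 value rests on 7 estimated counts. Mean Il6 levels were 1.17 ± 0.977 (SD, n = 3), 12.7 ± 8.96, 1.24 ± 1.51 and 617.7 ± 109.4 TPM in Q7-C, Q7-T, Q111-C and Q111-T. By the quasi-likelihood test of edgeR with p-values adjusted after Benjamini and Hochberg, used for every fold change here, the log2 fold change of Il6 in Q111-T vs. Q111-C was 9.06 ± 1.19 (SE; adjusted p = 2.48e-04), and this call stood in all 25 alternatives tried. Leaving out single libraries gave 8.58 to 10.73, the highest without Q111-C replicate 3. In bulk RNA, a change in the number of producing cells and a change in RNA per cell cannot be told apart.

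For Il6 in STHdhQ7 cells the fold change of Q7-T vs. Q7-C was 3.58 ± 0.947 on the log2 scale and missed the threshold (edgeR adjusted p = 0.0529). It passed in 10 of 25 alternatives, among them DESeq2 (3.60, adjusted p = 0.00198) and edgeR without Q7-C replicate 1 and Q7-T replicate 2 (3.39, adjusted p = 0.0202). Of the single libraries, leaving out Q111-C replicate 1, Q111-C replicate 3 or Q7-T replicate 2 took Il6 past the threshold (edgeR adjusted p between 0.0225 and 0.0494). The response was larger in STHdhQ111 cells by 5.48 ± 1.30 on the log2 scale (edgeR interaction, adjusted p = 0.0310). That call was lost (edgeR adjusted p up to 0.0893, log2 differences between 4.93 and 5.60) with a replicate block (5.56, edgeR adjusted p = 0.0636) and on leaving out Q111-C replicate 1 or 2, Q7-C replicate 2 or 3, Q7-T replicate 3, or any Q111-T library. Between treated cells, Il6 in Q111-T was above Q7-T by 5.37 on the log2 scale (SE 1.01, edgeR adjusted p = 0.00164), and this call also stood in all 25. Without Q111-C replicate 3 the interaction was 7.15 (edgeR adjusted p = 0.0127). Between nontreated cells the log2 difference was -0.11 (edgeR adjusted p = 0.953), but -1.77 without Q111-C replicate 3 (edgeR adjusted p = 0.244) and up to 0.45 without other single libraries, so that its direction is not settled.

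Lif encodes leukemia inhibitory factor and lies at chr11:4257557-4272514 on the plus strand. It was at 0.614, 1.08 and 1.25 TPM in Q7-C and at 5.74, 1.90 and 5.06 TPM in Q7-T. In Q111-C it was at 3.10, 3.11 and 3.57 TPM, and in Q111-T at 153.5, 112.2 and 124.7 TPM. The order of the group means was Q7-C (0.982 ± 0.330), Q111-C (3.26 ± 0.266), Q7-T (4.23 ± 2.05) and Q111-T (130.1 ± 21.2), and of the neighbours in this order only Q111-C and Q7-T overlapped. Lif was called in all 5 comparisons, and in each of them under every alternative. Its log2 fold change was 2.23 ± 0.228 in Q7-T vs. Q7-C (edgeR adjusted p = 7.39e-05) and 5.41 ± 0.259 in Q111-T vs. Q111-C (edgeR adjusted p = 2.48e-07), and the responses differed by 3.18 ± 0.315 (edgeR adjusted p = 2.63e-04). Lif was higher in STHdhQ111 cells by 1.45 ± 0.224 on the log2 scale before treatment (edgeR adjusted p = 6.16e-04) and by 4.63 ± 0.249 after it (edgeR adjusted p = 3.55e-07).

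Il11 encodes interleukin-11, a stromal cytokine, and lies at chr7:4772373-4782857 on the minus strand. It was low throughout, at 0.574, 1.14 and 0.742 TPM in Q7-C, 0.479, 0.0495 and 0.450 in Q7-T, 0.364, 0.399 and 0.852 in Q111-C, and 2.06, 1.78 and 2.34 in Q111-T. Every Q111-T library lay above the other 9, while Q7-C, Q7-T and Q111-C were at 4 to 88 estimated counts. The log2 fold change was 2.02 ± 0.565 in Q111-T vs. Q111-C (edgeR adjusted p = 0.0274) and -1.26 in Q7-T vs. Q7-C (SE 0.562, edgeR adjusted p = 0.313, and -0.92 with adjusted p = 0.325 without the 2 libraries that stand apart), and the responses differed by 3.28 ± 0.796 (edgeR adjusted p = 0.0344). The Q111-T vs. Q111-C call was lost with no filter on low values (edgeR adjusted p = 0.0587) and on leaving out Q111-C replicate 1 or 2 or any Q111-T library (edgeR adjusted p up to 0.116). The interaction was lost under the same settings, with a replicate block (3.49, edgeR adjusted p = 0.0577) and on leaving out Q7-C replicate 2 or 3 (edgeR adjusted p up to 0.102). Q111-T vs. Q7-T gave 2.38 ± 0.576 (edgeR adjusted p = 0.00729) and stood under every alternative. With limma on log2(TPM + 1), a scale that understates the change of low genes, these 3 values were still called but smaller, at 1.003 in Q111-T vs. Q111-C, 1.46 in the interaction and 1.22 in Q111-T vs. Q7-T.

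Clcf1 encodes cardiotrophin-like cytokine factor 1, which binds the ciliary neurotrophic factor receptor, and it lies at chr19:4214238-4223490 on the plus strand. It was the most abundant of the 4 ligands in nontreated cells, at 30.0, 36.7 and 39.8 TPM in Q7-C and 41.9, 47.9 and 42.4 TPM in Q111-C. With treatment it was at 44.0, 16.6 and 43.0 TPM in Q7-T and 39.0, 30.9 and 31.8 TPM in Q111-T. The lowest value came from Q7-T replicate 2, one of the libraries that stand apart. No comparison called Clcf1, and its log2 fold changes ranged from -0.35 (Q111-T vs. Q7-T) to 0.07 (Q7-T vs. Q7-C), all with edgeR adjusted p of at least 0.148. Without Q7-C replicate 1 and Q7-T replicate 2 they were -0.50 in Q111-T vs. Q7-T (edgeR adjusted p = 0.00272), -0.54 in the interaction (edgeR adjusted p = 0.0345), -0.27 in Q111-T vs. Q111-C (edgeR adjusted p = 0.0486) and 0.27 in Q7-T vs. Q7-C (edgeR adjusted p = 0.224), all under 2-fold.

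The make-up of the transcripts of these 4 ligands therefore differed with treatment, most in STHdhQ111 cells. Cntf and Ctf1, described below, were not counted in these shares. Between the nontreated groups the Clcf1 and Il6 shares overlapped, while Lif made up 2.50% ± 0.478 in Q7-C and 6.66% ± 0.593 in Q111-C. With treatment Lif made up 8.26% ± 0.286 in Q7-T and 16.8% ± 3.78 in Q111-T. Clcf1 made up 92.6% ± 3.12 of the summed TPM of the 4 ligands in Q7-C, 89.8% ± 3.99 in Q111-C, 68.7% ± 6.87 in Q7-T and 4.37% ± 0.808 in Q111-T (n = 3 each). Il6 made up 78.5% ± 4.63 in Q111-T and 22.5% ± 6.95 in Q7-T, and 2.81% ± 2.33 and 2.50% ± 3.01 in Q7-C and Q111-C. The sum itself was 38.5 ± 6.39, 49.1 ± 3.19, 51.8 ± 26.2 and 783.8 ± 96.6 TPM in Q7-C, Q111-C, Q7-T and Q111-T.

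**Figure D1:**
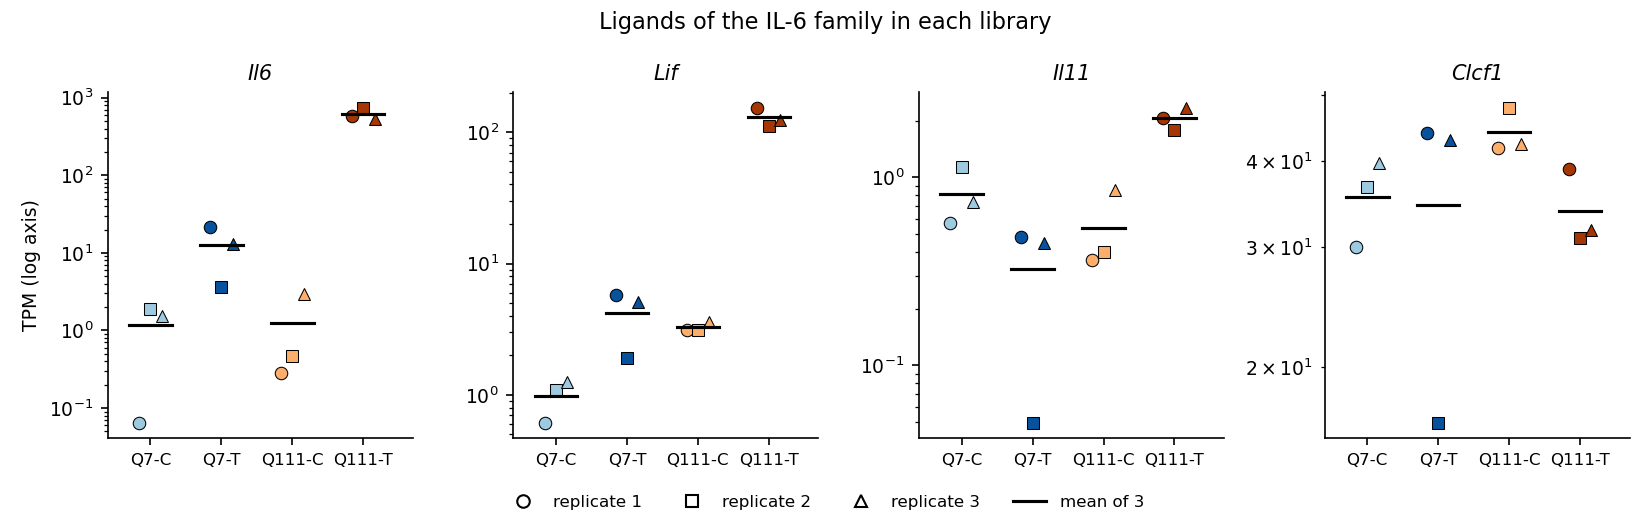
TPM on a log axis, with a range of its own for each gene, of the 4 ligand genes in each of 12 libraries. Each point is 1 library and each line the mean of 3. The Q111-T libraries of Il6 sit between 536.8 and 742.2 TPM and those of Lif between 112.2 and 153.5 TPM, above all other libraries. By TPM the Clcf1 groups overlap apart from Q111-C, which lies above Q7-C and Q111-T. By edgeR the log2 difference of Clcf1 in Q111-C vs. Q7-C was -0.0020 (adjusted p = 0.998).

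**Figure D2:**
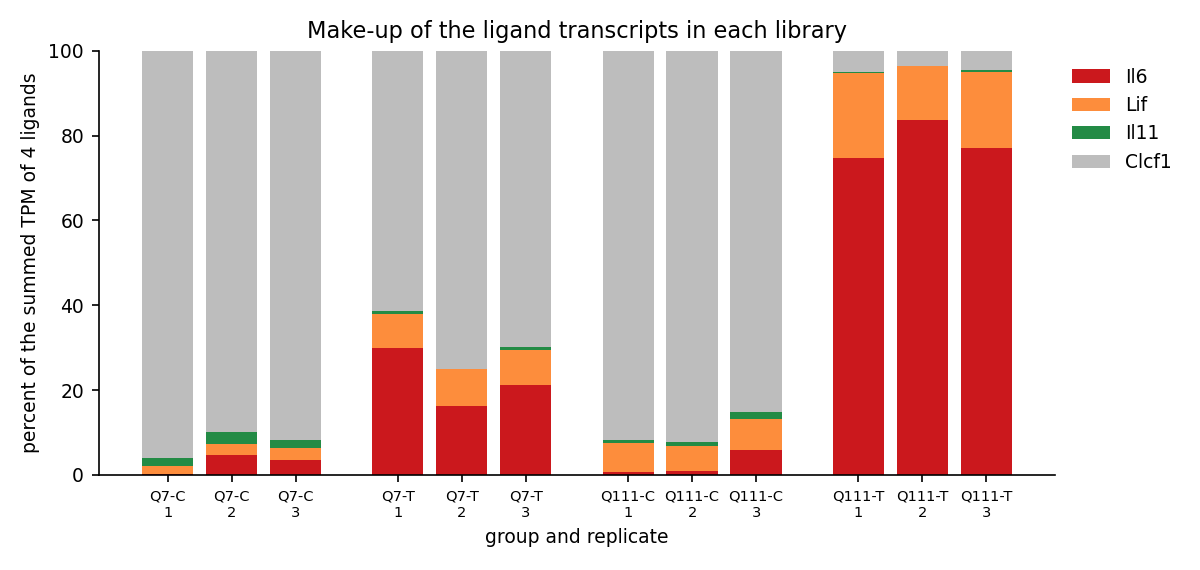
Percent of the summed TPM of Il6, Lif, Il11 and Clcf1 that each gene takes, with 1 bar for each library. Clcf1 fills most of the bar in Q7-C, Q7-T and Q111-C, and Il6 fills 74.7 to 83.7% in Q111-T.

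Of the other ligands of the family, Osm (oncostatin M, the main partner of Osmr) was not detected, with at most 4 estimated counts in any library, and Ctf2, Il27 and Ebi3 stayed at or under the 12 counts taken as the limit of detection. Ctf1 (cardiotrophin-1) was at 4.08 to 6.55 TPM in Q7-C, 1.93 to 2.20 in Q7-T, 0.0780 to 2.22 in Q111-C and 2.30 to 3.16 in Q111-T, and was called in 0 of 5 comparisons (edgeR adjusted p of at least 0.0766). Cntf (ciliary neurotrophic factor) was at 11.2 to 12.2 TPM in Q7-C and 4.14 to 4.93 TPM in Q111-C, and was lower in STHdhQ111 cells, with log2 differences of -1.74 ± 0.244 before and -1.69 ± 0.244 after treatment (edgeR adjusted p = 3.03e-04 and 2.84e-04). Cntf did not pass the threshold with treatment in either line. Cntfr, the receptor that Clcf1 and Cntf bind, was never tested and its group means were at most 0.0626 TPM.

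Among the receptors, Il6st (chr13:112464070-112510086, plus strand), the shared gp130 subunit, had the highest level in every group mean. It was at 12.7, 34.0 and 44.1 TPM in Q7-C, 56.1, 19.3 and 54.3 in Q7-T, 59.4, 71.1 and 72.3 in Q111-C, and 78.2, 40.9 and 86.8 in Q111-T. The lowest value of each STHdhQ7 group came from the library that stands apart. Il6st was called in 0 of 5 comparisons by edgeR. With treatment its log2 fold change was 0.69 ± 0.329 in STHdhQ7 and 0.09 in STHdhQ111 cells (SE 0.327), and between the lines it was 0.92 ± 0.330 in Q111-C vs. Q7-C (edgeR adjusted p = 0.0691). The last of these passed without Q7-C replicate 3 (1.24, edgeR adjusted p = 0.0346), and was 0.62 without Q7-C replicate 1 and Q7-T replicate 2 (edgeR adjusted p = 0.0455, under 2-fold). With Q111-T replicate 2 also left out, the fold change with treatment was 0.59 in STHdhQ7 and 0.32 in STHdhQ111 cells (edgeR adjusted p = 0.00928 and 0.0362), and Q111-T vs. Q7-T gave 0.36 (edgeR adjusted p = 0.0277, against 0.33 and 0.452 with all libraries), all under 2-fold.

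Il6ra (chr3:89864059-89913196, minus strand) encodes the receptor that binds IL-6 itself. It was at 1.52, 4.41 and 4.003 TPM in Q7-C, 4.73, 0.485 and 4.40 in Q7-T, 1.89, 2.35 and 2.07 in Q111-C, and 6.56, 3.11 and 6.01 in Q111-T. All Q111-T libraries lay above all Q111-C libraries, and the STHdhQ7 groups overlapped. Q111-T vs. Q111-C gave 1.39 ± 0.524 on the log2 scale and did not pass (edgeR adjusted p = 0.0954). Without Q7-C replicate 1 and Q7-T replicate 2, which carry much of the spread of this gene, the same comparison gave 1.40 (edgeR adjusted p = 3.16e-04), the interaction 1.20 (edgeR adjusted p = 0.0234, against 1.36 and 0.335 with all libraries) and Q111-C vs. Q7-C -1.17 (edgeR adjusted p = 0.00165, against -0.91 and 0.259). Leaving out Q7-T replicate 2 alone was enough for the Q111-T vs. Q111-C call (1.38, edgeR adjusted p = 0.00392), and DESeq2 called it with all libraries (1.38, adjusted p = 0.0341).

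Lifr (chr15:7090614-7197489, plus strand), the receptor of LIF, was at 3.75, 6.77 and 6.95 TPM in Q7-C, 4.32, 2.80 and 3.88 in Q7-T, 1.79, 2.08 and 1.83 in Q111-C, and 2.62, 2.87 and 3.00 in Q111-T. It was lower in STHdhQ111 cells before treatment, with a log2 difference of -1.89 ± 0.168 (edgeR adjusted p = 1.02e-05), and this call stood under every alternative. After treatment the difference was -0.76 ± 0.163 (edgeR adjusted p = 0.00380, under 2-fold). The line with the lower Lifr level was thus the one with the higher Lif level. In STHdhQ111 cells Lifr was higher with treatment by 0.68 ± 0.163 (edgeR adjusted p = 0.0126), also under 2-fold, and in STHdhQ7 cells the log2 fold change was -0.45 ± 0.162 (edgeR adjusted p = 0.176), or -0.66 without the 2 libraries that stand apart (edgeR adjusted p = 0.0158). The responses differed by 1.13 ± 0.230 (edgeR adjusted p = 0.0141). The call was lost with limma on log2(TPM + 0.5) (1.05, adjusted p = 0.117) and, in edgeR, without Q111-C replicate 1, Q111-C replicate 3 or Q7-C replicate 2 (adjusted p between 0.0520 and 0.0534).

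Osmr (chr15:6813577-6874969, minus strand) encodes the oncostatin M receptor subunit and lies 215644 bases from Lifr on the opposite strand. It was at 5.76, 13.8 and 14.1 TPM in Q7-C, 46.8, 16.5 and 48.4 in Q7-T, 18.8, 21.7 and 24.8 in Q111-C, and 56.5, 33.8 and 60.6 in Q111-T. The treated libraries lay above the nontreated ones in both lines without overlap. Its log2 fold change was 1.88 ± 0.280 in Q7-T vs. Q7-C (edgeR adjusted p = 0.00143) and 1.28 ± 0.275 in Q111-T vs. Q111-C (edgeR adjusted p = 0.00655), and the difference between the responses was -0.60 ± 0.384 (edgeR adjusted p = 0.425). With limma on log2(TPM + 0.5) the calls were lost in both lines (1.64, adjusted p = 0.0683, and 1.15, adjusted p = 0.102). Without the 2 libraries that stand apart they stood. Between nontreated cells Osmr differed by 0.70 (edgeR adjusted p = 0.0930), or 0.47 with Q111-T replicate 2 left out as well (edgeR adjusted p = 0.00419).

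Il11ra1 (chr4:41699989-41769474, plus strand) encodes the receptor of IL-11. It was at 9.45, 8.12 and 7.96 TPM in Q7-C, 7.78, 6.73 and 7.60 in Q7-T, 26.3, 25.9 and 24.1 in Q111-C, and 19.4, 14.4 and 20.0 in Q111-T. The 4 groups did not overlap, in the order Q7-T, Q7-C, Q111-T and Q111-C. It was higher in STHdhQ111 cells by 1.22 ± 0.215 on the log2 scale before treatment (edgeR adjusted p = 0.00151) and by 0.84 ± 0.214 after it (edgeR adjusted p = 0.00992, under 2-fold). Without the 2 libraries that stand apart the treated cells differed by 1.07 (edgeR adjusted p = 2.98e-05). The difference between treated cells was called in 6 of 25 alternatives. Among them were limma on log2(TPM + 0.5) with all libraries (1.22, adjusted p = 1.93e-04) and edgeR without Q7-T replicate 2 alone (1.03, adjusted p = 0.00225). Treatment gave -0.03 in STHdhQ7 and -0.42 in STHdhQ111 cells, neither called, the latter with edgeR adjusted p = 0.225, or 0.00711 at -0.40 without the 2 libraries. The annotated span overlaps 6 other genes, 5 of them on the opposite strand and Galt on the same strand, and the near-identical copy Il11ra2 lies on the same chromosome. Il11ra2 was at 1.75 to 2.01 TPM in Q111-C, 1.14 to 1.62 in Q111-T and at or under 11 counts in every STHdhQ7 library, and reads of the copies may have been shared, so that levels of both are uncertain.

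**Figure D3:**
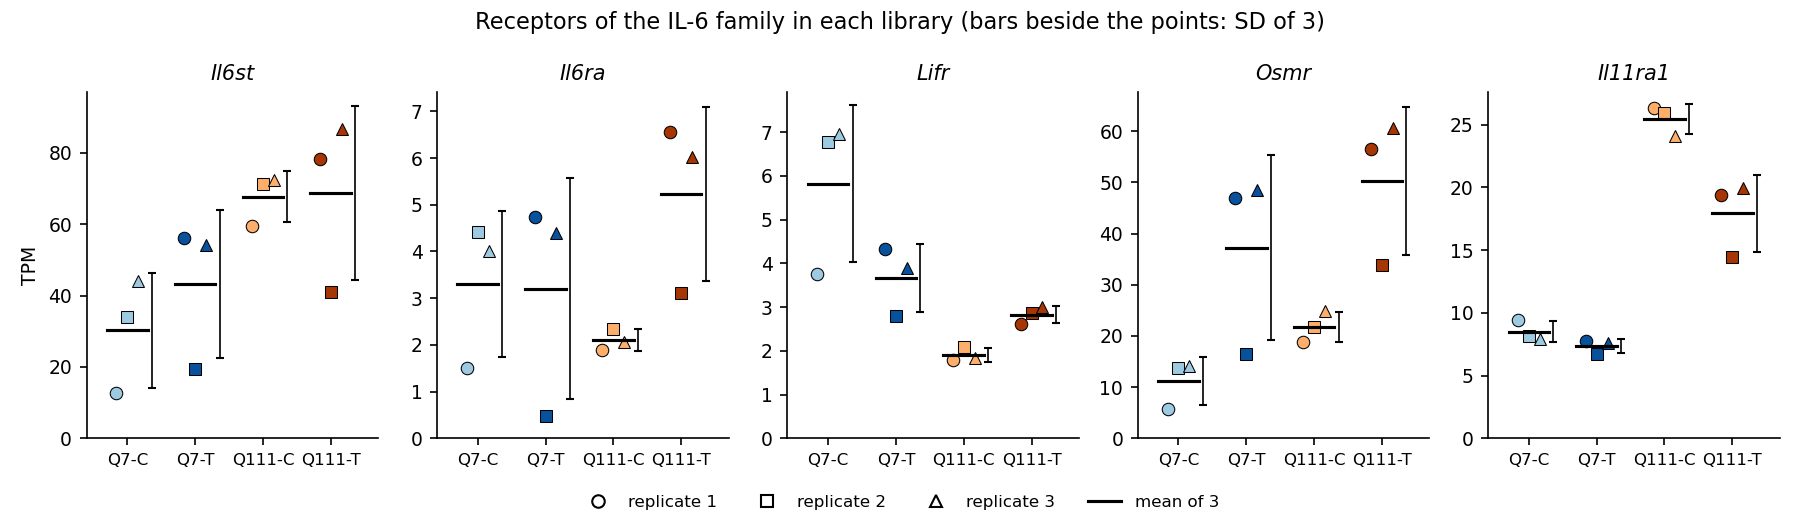
TPM of the 5 receptor genes in each of 12 libraries, on axes that start at 0, with the mean of 3 as a line and the SD beside the points. Q7-C replicate 1 and Q7-T replicate 2 hold the lowest Il6st, Il6ra and Osmr values of their groups, and all Lifr values of Q111-C lie under those of Q7-C.

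Counted over the family, 2 of 9 members were called up and 0 down in Q7-T vs. Q7-C (Lif and Osmr), where 4.04% of all 16127 genes tested were called, 2.93% up and 1.11% down. In Q111-T vs. Q111-C 4 of 9 were called up and 0 down (Il6, Lif, Il11 and Osmr), against 11.2% of all genes called, 8.28% up and 2.96% down. In the interaction 4 of 9 were called (Il6, Lif, Il11 and Lifr), all with the higher response in STHdhQ111 cells, against 4.71% of all genes called, 3.52% in that direction and 1.2% in the other. In Q111-C vs. Q7-C Lif and Il11ra1 were called higher and Lifr lower, against 15.2% of all genes called, 7.62% higher and 7.61% lower. In Q111-T vs. Q7-T Il6, Lif and Il11 were called higher, against 24.5% of all genes called, 13.3% higher and 11.2% lower. Without Q7-C replicate 1 and Q7-T replicate 2 the counts in the same order of comparisons were 3 (all up), 5 (all up), 5 (all up), 4 (2 up and 2 down) and 4 (all up), against 4.53%, 13.4%, 8.52%, 16.4% and 22.4% of all genes called. The median log2 fold change of the 9 members was 0.07, 1.28, 1.13, -0.0020 and 0.45, and that of all genes tested was 0.0033, -0.0050, -0.02, -0.02 and -0.03. The comparisons share libraries and are not independent of each other.

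By level, TPM ranges did not overlap for 5 of 9 members in Q7-T vs. Q7-C (14.4% of all genes), 8 in Q111-T vs. Q111-C (49.6%), 6 in Q111-C vs. Q7-C (51.4%) and 4 in Q111-T vs. Q7-T (46.3%). Two-sided exact permutation tests of single genes with 3 libraries against 3 cannot go under p = 0.10, and every member without overlap was at that limit.

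**Figure D4:**
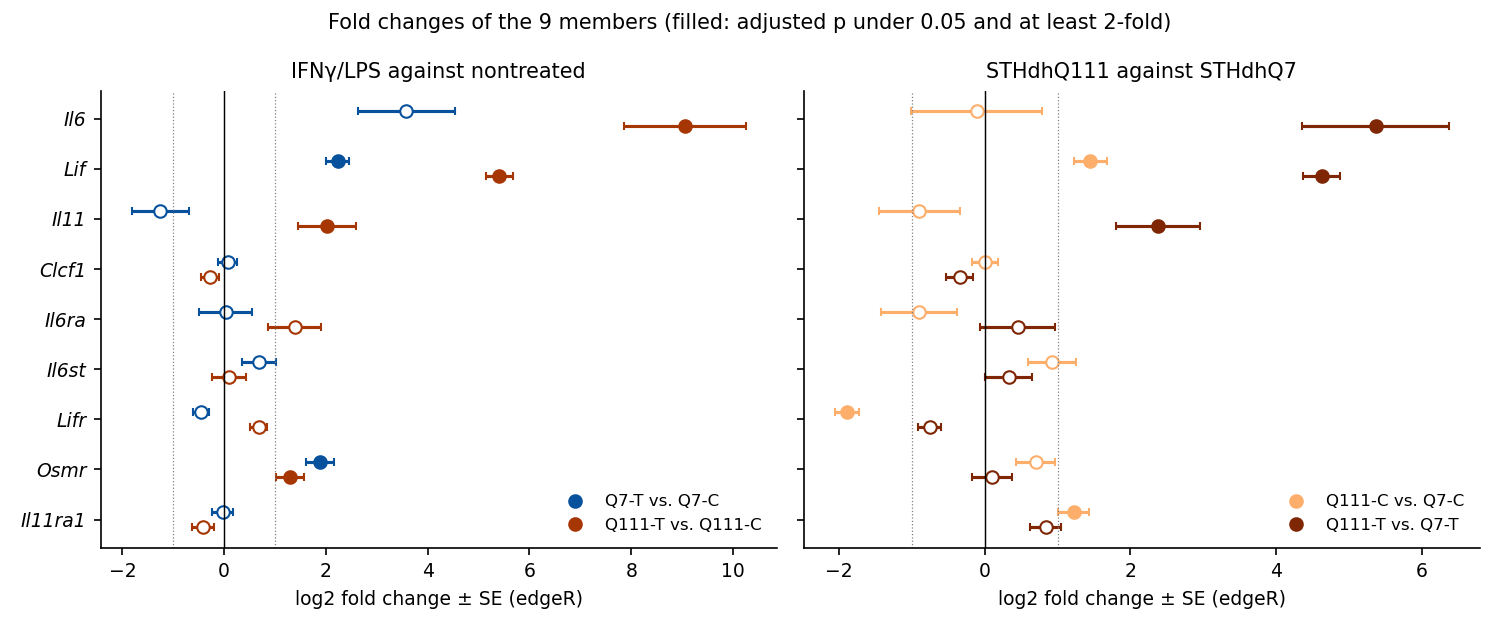
Log2 fold change with its standard error from edgeR for the 9 members, treated against nontreated cells on the left and STHdhQ111 against STHdhQ7 cells on the right. Filled points passed an adjusted p of 0.05 and 2-fold, and dotted lines mark 2-fold. Il6, Lif and Il11 lie further right in Q111-T vs. Q111-C than in Q7-T vs. Q7-C.

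As a check of the treatment, Nos2, Cxcl10, Irf1 and Gbp2 were called up in both lines, 4 of 4. Genes around the members in the pathway were read from lists drawn up with earlier results of these data known. Of 11 receptor-proximal signalling genes, 1 was called up in Q7-T vs. Q7-C (Stat3) and 1 in Q111-T vs. Q111-C (Jak2), against 2.93% and 8.28% of all genes, and 0 were called down in either or called in the interaction. Without the 2 libraries that stand apart, Stat5a was also called down in Q111-T vs. Q111-C (1 up and 1 down), and Stat3 and Stat5a were called in the interaction with the lower fold change in STHdhQ111 cells (0 up and 2 down, against 2.03% of all genes called down at that setting). Stat3, the main transcription factor under gp130, rose by 1.40 ± 0.310 in STHdhQ7 cells (edgeR adjusted p = 0.0211). This call was lost in 10 of 25 alternatives. Among them were leaving out any Q7-C library, Q7-T replicate 1 or Q7-T replicate 3 (edgeR adjusted p up to 0.0755) and limma on TPM. Before treatment Stat3 was also higher in STHdhQ111 cells, by 1.21 ± 0.309 (edgeR adjusted p = 0.0142, and 0.0510 without Q7-C replicate 1). Its mean levels were 11.5 ± 2.89, 28.8 ± 17.6, 32.7 ± 4.51 and 36.7 ± 9.06 TPM in Q7-C, Q7-T, Q111-C and Q111-T. Jak2, the kinase, rose in STHdhQ111 cells by 1.08 ± 0.296 (edgeR adjusted p = 0.0252). That call was lost in 9 of 25 alternatives. Among them were limma on TPM and leaving out any Q111-C library, Q111-T replicate 1 or Q111-T replicate 3 (edgeR adjusted p up to 0.0980).

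Of 9 genes for inhibitors of the pathway, 3 were called up in each line with treatment (2.93% and 8.28% of all genes in STHdhQ7 and STHdhQ111 cells) and 0 down, and these were Socs1, Socs3 and Cish in both. Socs3 rose by 2.45 ± 0.204 in STHdhQ7 and 1.67 ± 0.198 in STHdhQ111 cells (edgeR adjusted p = 1.25e-05 and 1.13e-04), to 40.6 ± 15.6 and 56.3 ± 6.89 TPM. Socs1 rose by 3.83 ± 0.616 and 3.40 ± 0.603 (edgeR adjusted p = 0.00258 and 0.00205), and Cish by 1.33 ± 0.321 and 2.41 ± 0.330 (edgeR adjusted p = 0.0344 and 3.20e-04). Cish was under 2 TPM throughout, and its STHdhQ7 call was lost in 16 of 25 alternatives, among them leaving out any library but Q7-C replicate 3 and Q7-T replicate 2. Adam10 and Adam17, the proteases that shed Il6ra, were called in 0 of 5 comparisons.

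Of 18 genes listed as STAT3 targets, 6 were called up and 0 down in Q7-T vs. Q7-C, and 10 up and 0 down in Q111-T vs. Q111-C, against 2.93% and 8.28% of all genes called up. The median log2 fold change of the list was 0.84 and 1.63. Many genes of this list also answer to NF-κB, interferon or AP-1, and the part of each was not tested. Lcn2 and Saa3, acute phase genes, rose in both lines, Lcn2 by 7.37 ± 0.415 and 7.83 ± 0.423 and Saa3 by 7.36 ± 0.792 and 6.39 ± 0.764 (edgeR adjusted p of at most 1.20e-04). The responses differed for 5 genes of the list (edgeR interaction), 3 up and 2 down, against 3.52% and 1.2% of all genes. Fos (3.91 ± 0.479), Vegfa (2.10 ± 0.255) and Junb (2.00 ± 0.358) had the higher response in STHdhQ111 cells, while Bcl3 (-1.98 ± 0.364) and Cebpd (-1.90 ± 0.447) had the higher response in STHdhQ7 cells, with edgeR adjusted p between 9.09e-04 and 0.0298. The Cebpd call was lost without any Q111-C library, Q111-T replicate 1 or 3, or Q7-C replicate 2 or 3 (edgeR adjusted p up to 0.0781). Fos and Junb encode AP-1 subunits, and Junb was at 748.7 ± 106.3 TPM in Q111-T. Without the 2 libraries that stand apart, 7 and 10 genes of the list were called up in the STHdhQ7 and STHdhQ111 comparisons (3.06% and 9.59% of all genes), and 3 up and 3 down in the interaction (6.49% and 2.03%).

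**Figure D5:**
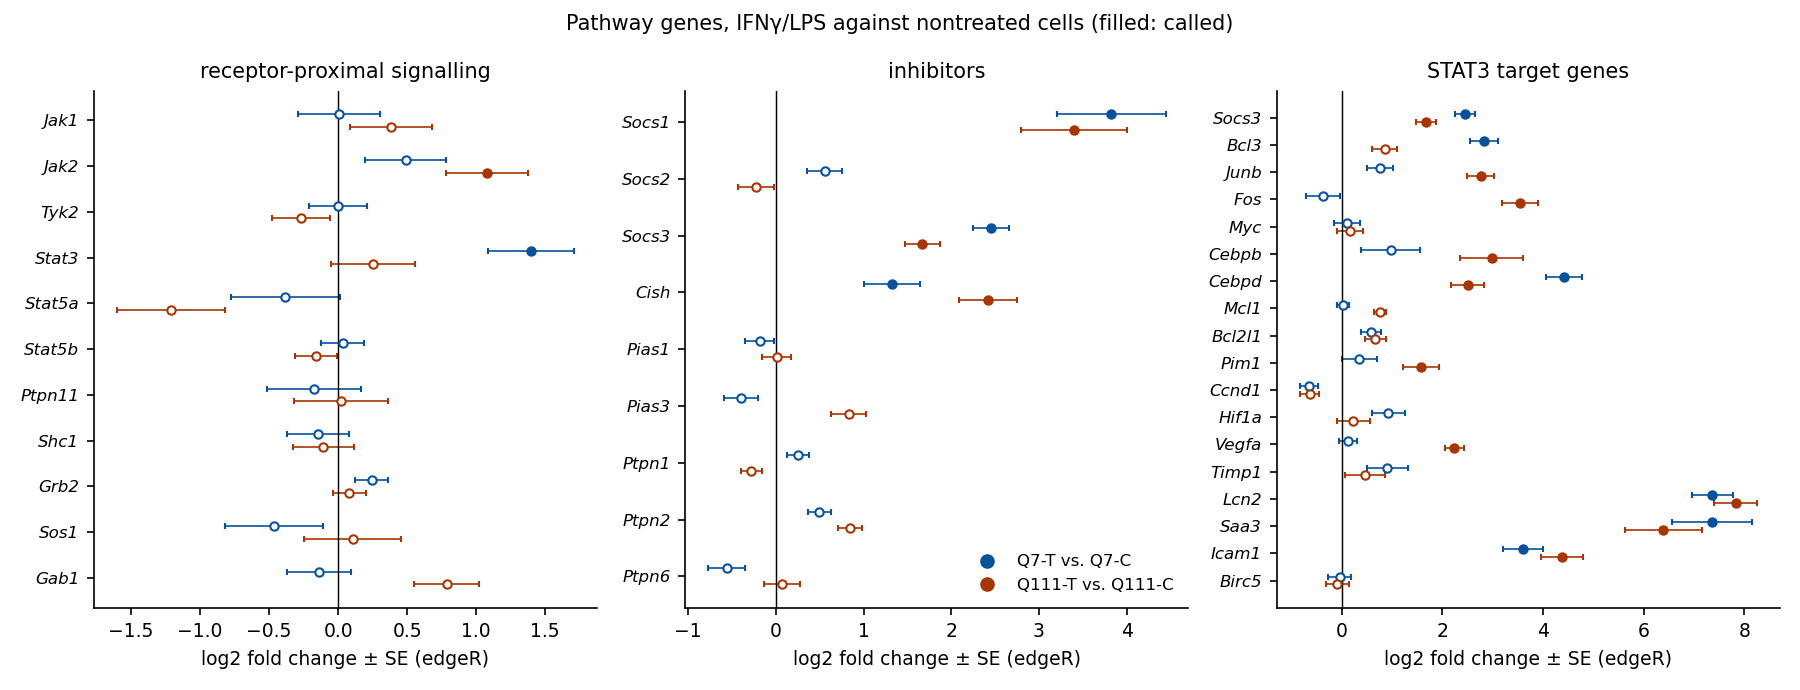
Log2 fold change with its standard error from edgeR, treated against nontreated cells, for receptor-proximal signalling genes, inhibitors and STAT3 target genes. Filled points were called. Socs1, Socs3, Lcn2 and Saa3 are filled in both lines, and Fos, Junb and Vegfa in STHdhQ111 cells only by this test, with their differences between the lines called in the interaction.

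Across the 12 libraries, Il6 and Lif followed each other (Pearson r = 0.953 of log2(TPM + 0.5)), and Lifr and Il11ra1 ran opposite to each other (r = -0.781). These correlations describe 4 groups of libraries that share line, treatment and depth. The tested genes most like Il6 were Crem (r = 0.984), Gm8810 (0.982) and Ifi205 (0.982), and those most like Lif were Ak4 (0.997), Pnp (0.997) and Mx2 (0.994). For Osmr they were Pgs1 (0.984), Ntn1 (0.978) and Sbno2 (0.978). For Lifr they were Kcnq5 (0.984), Lrrc75b (0.981) and Timp3 (0.971), and for Il11ra1 B4galnt1 (0.996), Rspo2 (0.991) and Cgref1 (0.990). For Il6st, Car13 (0.974), Depdc5 (0.971) and Zfp661 (0.968) came first, and for Il6ra Pakap (0.987), Hk1 (0.965) and Fut8 (0.960). For Clcf1 they were Zfp647 (0.980), Csnk1e (0.980) and Psme3 (0.974), and for Il11 2610020C07Rik (0.954), Mybl1 (0.952) and Pqlc3 (0.945).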

How the data were processed

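According to the study's methods, 12 stranded, paired-end libraries were prepared from poly(A) RNA. The authors trimmed reads with Cutadapt, mapped them with HISAT2 to GRCm38 and estimated expression with StringTie. They deposited a TPM value and an estimated count for each of 29428 genes and 12 libraries. TPM is scaled for length and library. The estimated counts sum to 57505990 to 96417834 per library and peak at multiples of 4, so 4 counts were taken as 1 read pair and 12 counts or fewer in every library of a group as not detected, which covers counting error only.

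Counts rounded to whole numbers were tested with edgeR 4.0.16 (quasi-likelihood test, TMM scaling, a minimum of 0.5 TPM in 3 or more libraries, which 16127 genes passed, 4 group means in 1 fit, Benjamini-Hochberg over all genes). A call needs an adjusted p under 0.05 and at least 2-fold. The SE comes from the F statistic. Single TPM differences were tested by two-sided exact permutation. Alternatives were DESeq2 1.42.0, limma 3.58.1 on log2(TPM + 0.5, 0.1 or 1), RLE and upper-quartile scaling, no filter or 1 TPM, counts divided by 4, only the 2 groups compared, a replicate block, each library left out, and, chosen after seeing the data, the libraries that stand apart left out together. No 2 libraries of a group agreed within sampling noise.

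The members and lists were chosen with earlier results of these data known. Genes named are the 9 members, the listed pathway genes and, for each member, the 3 tested genes with the most similar log2(TPM + 0.5). The paper calls the 3 replicates of each group biological. The labels do not say whether replicates are separate cultures, so p-values measure the spread between these libraries, which may be technical. Promoter windows come from the RefSeq table on GRCm38.p6, and protein sequences were not used here. Some genes of the planned lists are not reported here.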

Additional observations from a re-analysis of the deposited data

Results flagged for a closer look

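For 4 members the response to IFNγ/LPS differed between the lines by the interaction term of edgeR, always towards a higher fold change in STHdhQ111 cells. The difference was 5.48 on the log2 scale for Il6 (adjusted p = 0.0310), 3.18 for Lif (adjusted p = 2.63e-04), 3.28 for Il11 (adjusted p = 0.0344) and 1.13 for Lifr (adjusted p = 0.0141). Lif stood under all 24 alternatives, with differences between 2.96 and 3.33 on leaving out 1 library. The other 3 calls were each lost without some single libraries, which are named beside the results, while on leaving out 1 library their differences ranged from 4.93 to 7.15 for Il6, 2.83 to 3.75 for Il11 and 1.01 to 1.26 for Lifr. Under the other alternatives they ranged from 5.38 to 5.86, 1.46 to 3.49 and 0.92 to 1.35, the lowest value for Il11 with limma on log2(TPM + 1). Il11 rests on 4 to 155 estimated counts per library.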

How the results depend on the processing

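Of 1116 recomputed member values, 1000 kept their direction and side of the threshold, 36 lost a call, 26 gained one and 54 changed sign, and 24 of 45 member results were the same throughout. The number of members called in Q7-T vs. Q7-C was 1 with limma on log2(TPM + 0.1), instead of 2. Of all genes, 3.32% were called there, instead of 4.04%. In the interaction it ranged from 1 to 4 when single libraries were left out, while 3.17% to 6.19% of all genes were called. The replicate numbers showed no clear pairing of the libraries. Only 7 of 18 correlations of same-numbered libraries exceeded 0.1 (range -0.582 to 0.450), and 2 of 12 libraries correlated best with their own number. These correlations use deviations from group means of 3 libraries, so they cannot exclude a pairing. With a replicate block the interaction called 2 members (Lif and Lifr) instead of 4, and 3.88% of all genes instead of 4.71%.

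None of the differences that changed sign was called. Il6 in Q111-C vs. Q7-C was 0.10 with limma on log2(TPM + 0.1) and -1.77 to 0.45 without single libraries. Clcf1 in Q111-C vs. Q7-C was 0.012 with DESeq2 and with RLE scaling, 0.027 with upper-quartile scaling, 0.030 with a minimum of 1 TPM, 9.28e-04 without a filter, 3.2e-04 with counts divided by 4, 0.0096 with only the 2 groups, 0.0036 with the replicate block, 0.32, 0.32 and 0.31 with limma (pseudocounts 0.5, 0.1 and 1), 0.034 without Q7-C replicate 1 and Q7-T replicate 2 and also without Q111-T replicate 2, and -0.016 to 0.064 without single libraries. With limma in the same order, Clcf1 was -0.15, -0.16 and -0.15 in Q7-T vs. Q7-C (-0.054 to 0.27 without single libraries) and 0.091, 0.095 and 0.088 in Q111-T vs. Q7-T, Il6st was -0.045, -0.046 and -0.044 in Q111-T vs. Q111-C (-0.094 to 0.28), and Il6ra was -0.27, -0.41 and -0.19 in Q7-T vs. Q7-C (-0.12 with the replicate block, -0.28 to 0.49 without single libraries). Il6ra in Q111-T vs. Q7-T ranged from -0.0086 to 0.76 without single libraries and up to 1.12 otherwise. Osmr in Q111-T vs. Q7-T was -0.089 without the 2 libraries that stand apart (-0.12 to 0.27), and Il11ra1 in Q7-T vs. Q7-C was 0.019 without the 2 or with Q111-T replicate 2 also left out (-0.22 to 0.24). The cause of these changes was not tested. On the scale of log2(TPM + 0.5), the median of all genes lay at 0.27 in Q111-C vs. Q7-C and 0.34 in Q111-T vs. Q7-T. Depth limits Il6 in Q7-C and Q111-C and Il11, with 7 to 277 and 4 to 155 estimated counts per library.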

Other observations

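Stat5a, a transcription factor of the JAK-STAT pathway, was higher in STHdhQ111 cells by 2.55 ± 0.411 on the log2 scale before treatment and 1.72 ± 0.401 after it (edgeR adjusted p = 8.30e-04 and 0.00598). The cyclin gene Ccnd1, on the list of STAT3 targets, was lower in STHdhQ111 cells, with log2 differences of -3.05 ± 0.198 before and -3.03 ± 0.198 after treatment (edgeR adjusted p = 1.06e-06 and 1.00e-06), and Bcl3 was higher by 2.11 ± 0.266 before treatment (edgeR adjusted p = 1.45e-04). Osm lies 16530 bases from Lif on the same chromosome, and Cntfr lies 2948 bases from Il11ra1. Osm had at most 4 estimated counts in any library, while its neighbour Lif reached 153.5 TPM.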
